A study of Mus musculus with 2 samples.

Results

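The mouse genome holds 3 related clusters in which a gene of the miR-99/100 family, a let-7 gene and a miR-125 gene lie in a row. Their 9 genes, Mir99a, Mirlet7c-1 and Mir125b-2, Mir99b, Mirlet7e and Mir125a, and Mir100, Mirlet7a-2 and Mir125b-1, were taken by symbol in the GENCODE M21 annotation from 2202 miRNA genes with deposited counts. Each cluster is called here by its miR-99/100 gene. Small RNA (under 30 bases) was sequenced from total heart RNA of female B6CASTF1/J mice aged 36 days, which are first-generation offspring of a cross between the C57BL/6 and CAST strains. They form a single group of 2 biological replicates, each from a heart with its own sample record, so that there are no conditions to compare and replicates 1 and 2 are set side by side. The labels give both records 1 donor code, 1 of their free-text fields gives the age in months, and they name neither a treatment nor a transgene. Reads of both parental genomes were counted on mm10, a build of the C57BL/6 strain, and how alleles of the CAST parent map there was not tested.

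miRNAs are short RNAs cut from the 2 arms of a hairpin transcript. One arm is usually kept as the guide, which pairs with target mRNAs mainly through its seed, bases 2 to 8 from the 5′ end. In all 3 families the arm nearer the 5′ end (5p) is known as the guide. The clusters are ancient: let-7 and lin-4, the nematode relative of miR-125, were found as regulators of developmental timing. In mammals let-7 and miR-125 increase as cells differentiate, and the let-7 step is held back by the protein LIN28 in immature cells. The files give 1 count per hairpin gene and do not separate the arms.

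The 5p sequences are shown because they decide which members can be counted apart. They come from RefSeq (GRCm38.p6), which lists mature sequences under all 9 member symbols. The capitals mark the seed, and the entry for let-7a-5p stands there under Mirlet7a-1.
miR-99a-5p of Mir99a: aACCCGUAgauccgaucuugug
miR-100-5p of Mir100: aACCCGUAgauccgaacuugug
miR-99b-5p of Mir99b: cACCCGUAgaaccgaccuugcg
let-7c-5p of Mirlet7c-1: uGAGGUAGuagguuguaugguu
let-7a-5p of Mirlet7a-2: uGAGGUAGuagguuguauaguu
let-7e-5p of Mirlet7e: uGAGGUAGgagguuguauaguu
miR-125b-5p of Mir125b-1 and Mir125b-2: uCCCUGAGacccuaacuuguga
miR-125a-5p of Mir125a: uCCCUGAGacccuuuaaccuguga

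Each family had a single seed over the 3 clusters. The 5p arms differed outside it, except those of Mir125b-1 and Mir125b-2, which are identical. With positions counted from 1 at the 5′ end, miR-99a-5p and miR-100-5p differed by 1 base (U16A, miR-99a first), and let-7c-5p and let-7a-5p also by 1 (G19A, let-7c first). let-7e-5p differed from let-7a-5p by G9U (let-7e first). miR-99b-5p differed from miR-99a-5p at 4 positions. The 5p arm of Mir125a, of 24 bases, was the same as the 22 bases of miR-125b-5p over its first 13 bases. Among the counted genes, the seed of miR-99/100 occurred in these 3 genes and in no other mature sequence listed. The let-7 seed occurred in mature sequences listed for 13 counted genes, Mirlet7a-2 not among them, and the miR-125 seed in 6.

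Of the 9 members, 5 have a 5p arm that occurs in 1 of the 2202 counted hairpins, and 4 share theirs with another counted hairpin. Mirlet7c-1 shares let-7c-5p with Mirlet7c-2, Mirlet7a-2 shares let-7a-5p with Mirlet7a-1, and Mir125b-1 and Mir125b-2 share miR-125b-5p with each other. The deposited tables keep reads that map to several places in a row of their own and count them at no gene. A read of exactly the shared arm is found at both hairpins, whereas the 3p arms of these 4 genes each occurred in 1 counted hairpin. Longer reads can also tell the copies apart. The following lines show the shared arms with the bases, in capitals, that the hairpin adds at the 3′ end before the sequence occurs in 1 counted hairpin.
Mirlet7c-1 with 2 more bases: ugagguaguagguuguaugguuUA
Mirlet7a-2 with 2 more bases: ugagguaguagguuguauaguuUA
Mir125b-2 with 1 more base: ucccugagacccuaacuugugaG
Mir125b-1 with 1 more base: ucccugagacccuaacuugugaU
The 3p arms shown next, with bases 2 to 8 in capitals, are the other sequences of these genes that occur in a single counted hairpin.
let-7c-1-3p: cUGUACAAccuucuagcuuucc
let-7a-2-3p: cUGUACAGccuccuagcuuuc
miR-125b-1-3p: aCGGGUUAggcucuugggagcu
miR-125b-2-3p: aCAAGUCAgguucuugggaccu
A count at any of these 4 genes therefore leaves out an unknown part of its mature miRNA.

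The 3 clusters share the order of families but not their spacing (mm10, GENCODE M21, all on the plus strand). Mir99a lies on chromosome 16 from 77598936 to 77599000, Mirlet7c-1 from 77599657 to 77599750 and Mir125b-2 from 77646273 to 77646343, all in introns of the noncoding gene Mir99ahg. Mir125b-2 also overlaps an exon of C130023A14Rik, and Mir99a and Mirlet7c-1 lie in an intron of Gm11146 on the opposite strand. The Mir99b cluster is the compact one, with a span of 692 bases on chromosome 17. There Mir99b (17830188 to 17830257) and Mirlet7e (17830352 to 17830444) lie in an intron of Spaca6, a gene for a sperm protein needed for fusion with the egg. Mir125a (17830812 to 17830879) overlaps an exon of Spaca6. On chromosome 9, Mir100 (41531425 to 41531504), Mirlet7a-2 (41536716 to 41536811) and Mir125b-1 (41581926 to 41582002) lie in introns of the noncoding genes 3110039I08Rik and Gm49317. Mir100 also faces an exon of Gm48742 on the opposite strand, and Mir125b-1 overlaps an exon of Gm28119. The gap before the miR-125 gene was 46522 bases in the Mir99a cluster and 45114 in the Mir100 cluster, against 367 bases in the Mir99b cluster.

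In each heart all 9 members reached 2 counts per 1000000 (CPM), the limit used for detection, and no member had a read on the strand opposite to it. CPM are sense-strand counts scaled to 1000000 counts at miRNA genes, of which the libraries held 2074961 in replicate 1 and 1766135 in replicate 2. Together the members held 8.003% of these counts in replicate 1 and 9.92% in replicate 2. The sums were 51928 ± 7360 CPM (SD, n = 2) for the Mir99a cluster, 28379 ± 4036 CPM for the Mir99b cluster and 9309 ± 2158 CPM for the Mir100 cluster. The 3 sums did not overlap between clusters in either heart. In whole tissue, more cells of a type and more RNA per cell cannot be told apart in such values.

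Mir99a was the highest member, with 95897 counts in replicate 1 and 99889 in replicate 2, which are 46216 and 56558 CPM. It ranked at place 6 of all miRNA genes by mean CPM. Reads that map to several places, 42.0% of all reads in replicate 1 and 39.8% in replicate 2, are in no gene's count. The place is therefore one among counted reads and gives no order of the mature miRNAs. Next above Mir99a stood Mir23b (54688 ± 2933 CPM, SD, n = 2) and next below it Mirlet7b (49816 ± 12237 CPM). The values of Mir99a overlapped those of both. Mir99b followed with 31779 and 25572 counts, or 15315 and 14479 CPM. It was the only member with a lower CPM in replicate 2. Mir30d (16273 ± 2696 CPM) and Mir22 (12653 ± 3022 CPM) stood next to it, and their ranges overlapped its own. Mir100 had 15249 and 17892 counts, or 7349 and 10131 CPM, between Mir30a (10874 ± 1245 CPM) and, with Mir125a left aside, Mir652 (7059 ± 234 CPM).

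The other members with a 5p arm of their own were Mir125a and Mirlet7e. Mir125a had 9850 counts in replicate 1 and 18296 in replicate 2, which are 4747 and 10359 CPM. Mirlet7e was steadier, with 11334 and 11293 counts, or 5462 and 6394 CPM. A further miRNA gene, Gm25927, is annotated on the strand opposite to Mirlet7e and had 0 sense counts in both libraries. The count column that disregards strand, which has a row for reads of ambiguous origin, lists Mirlet7e at 0.

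The 4 members with a shared 5p arm stood far lower, between 96.9 and 459 CPM, while the 5 others stood between 4747 and 56558 CPM. Mirlet7c-1 had 851 and 811 counts, which are 410 and 459 CPM, and Mirlet7a-2 had 662 and 680, which are 319 and 385 CPM. Mir125b-1 had 239 counts (115 CPM) in replicate 1 and 565 counts (320 CPM) in replicate 2. Mir125b-2 had 201 and 203 counts, or 96.9 and 115 CPM. Exact 95% intervals for counting error were narrow even here, from 83.9 to 111 CPM for Mir125b-2 in replicate 1 and from 99.7 to 132 in replicate 2. The share of the gap between both sets of members that comes from uncounted reads was not tested, since the arm a read came from is not in the files.

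**Figure D1:**
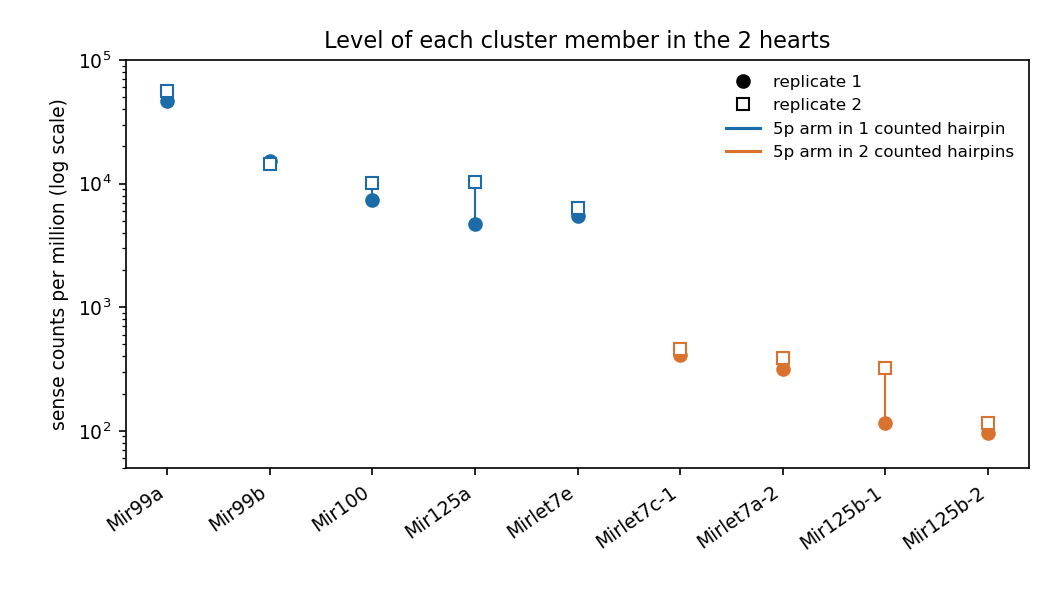
CPM of the 9 members (log axis) in replicate 1 (filled circles) and replicate 2 (open squares), ordered by mean; blue marks a 5p arm found in 1 counted hairpin and orange a 5p arm found in 2. All blue members lie at 4747 CPM or above and all orange members at 459 CPM or below, and the widest gaps between the hearts are those of Mir125a and Mir125b-1.

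By mean CPM the members ran from Mir99a through Mir99b, Mir100, Mir125a, Mirlet7e, Mirlet7c-1, Mirlet7a-2 and Mir125b-1 to Mir125b-2. Some neighbours in this order did not differ beyond the spread of the 2 hearts. The ranges of Mir100 and Mir125a overlapped, as did those of Mir125a and Mirlet7e. The members of each of these pairs changed places between the hearts. The ranges of Mirlet7a-2 and Mir125b-1 overlapped too, with Mirlet7a-2 higher in each heart. The largest step was that from Mirlet7e to Mirlet7c-1, a ratio of means of 13.6, and it separates the members with their own 5p arm from those that share one.

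Within the Mir99a and Mir100 clusters nearly all counts came from the miR-99/100 gene, and within the Mir99b cluster they were spread over all 3 members. Mir99a held 98.9% of its cluster's counts in replicate 1 (exact 95% limits 98.8 to 99.0) and 99.0% in replicate 2 (98.9 to 99.1). Mir100 held 94.4% (94.1 to 94.8) and 93.5% (93.1 to 93.8). In both clusters the let-7 gene and the miR-125 gene are those with a shared 5p arm. In the Mir99b cluster, where each 5p arm is found once among the counted hairpins, Mir99b held 60.0% (59.6 to 60.4) and 46.4% (45.9 to 46.8). Mirlet7e held 21.4% (21.1 to 21.8) and 20.5% (20.1 to 20.8), and Mir125a 18.6% (18.3 to 18.9) and 33.2% (32.8 to 33.6). The intervals of all 3 members did not overlap between the hearts, with Mir99b and Mir125a far apart and Mirlet7e close. In the Mir100 cluster those of Mir100 and Mir125b-1 (1.30 to 1.68% and 2.72 to 3.20%) did not overlap either. Shares in other clusters were not computed. Among the other neighbouring gene pairs described below, 61.8% had ratio intervals that did not overlap.

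**Figure D2:**
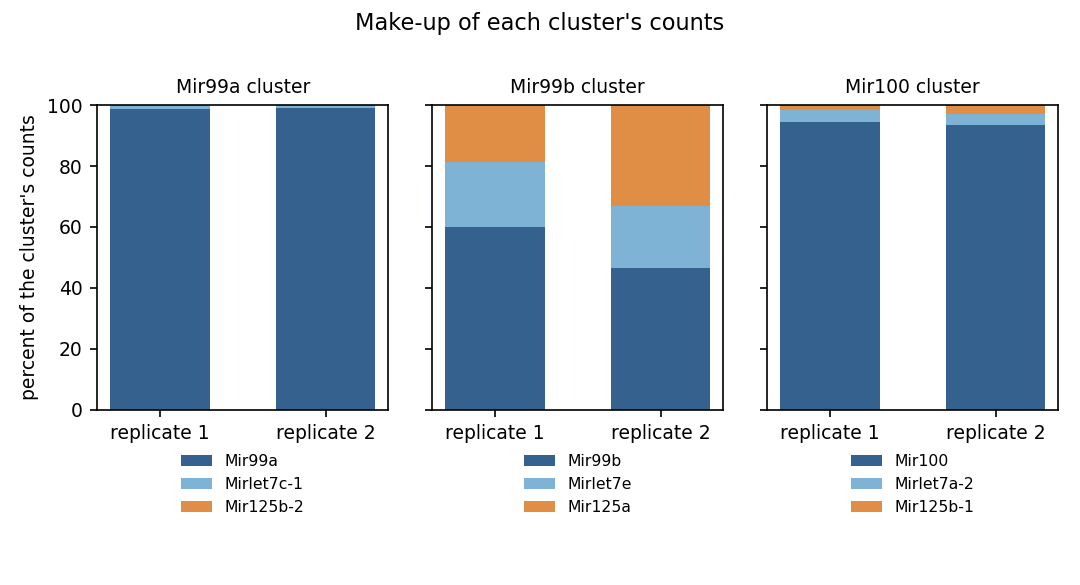
Percent of each cluster's sense counts (vertical axis) held by its 3 members in replicates 1 and 2, as stacked bars; dark blue is the miR-99/100 gene, light blue the let-7 gene and orange the miR-125 gene. The Mir99a and Mir100 bars are almost wholly dark blue, and in the Mir99b bars the orange part grows from 18.6% to 33.2%.

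A ratio of 2 genes within a library does not depend on how the libraries are scaled. For each count of Mir125a there were 3.23 counts of Mir99b in replicate 1 (exact 95% limits 3.15 to 3.30) and 1.40 in replicate 2 (1.37 to 1.42). Mir99b exceeded Mirlet7e by 2.80 times (2.74 to 2.86) and 2.26 times (2.21 to 2.32). The ratio of Mir125a to Mirlet7e went from 0.87 (0.85 to 0.89) to 1.62 (1.58 to 1.66), so that the order of these neighbours turned. For each count of Mir125b-1 there were 63.8 counts of Mir100 in replicate 1 (56.1 to 72.8) and 31.7 in replicate 2 (29.1 to 34.5). Mirlet7a-2 exceeded Mir125b-1 by 2.77 times (2.39 to 3.23) and 1.20 times (1.07 to 1.35).

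The miR-125 gene of the Mir99a cluster kept its ratio. For each count of Mir125b-2 there were 477 counts of Mir99a in replicate 1 (415 to 551) and 492 in replicate 2 (429 to 568). Mirlet7c-1 exceeded Mir125b-2 by 4.23 times (3.63 to 4.96) and 4.00 times (3.42 to 4.68). Of the 9 pairs within clusters, 5 had intervals that did not overlap between the hearts, the 3 of the Mir99b cluster and the 2 of Mir125b-1. The other 4 pairs, all 3 of the Mir99a cluster and Mir100 with Mirlet7a-2, had overlapping intervals. These intervals cover counting error within 1 library and not the spread between animals.

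Shifts of this size also occurred between other neighbouring miRNA genes. Over 34 pairs of consecutive genes that are not members, on 1 strand, within 50 kb and with a mean of 100 CPM or more, the ratio of a pair moved between the hearts by a median of 1.28-fold and by 2-fold or more in 3. The intervals of 21 of these pairs, 61.8%, did not overlap between the hearts. Over the 6 pairs of consecutive members the median was 1.19-fold, and 1 pair, Mirlet7a-2 and Mir125b-1 with 2.30-fold, moved by 2-fold or more. The intervals of 3 of these 6 pairs (50%) did not overlap. Mir99b with Mir125a and Mir100 with Mir125b-1 are not consecutive and so are not among these pairs. Their ratios moved by 2.31-fold and 2.01-fold, and pairs of other genes that are not consecutive were not computed. The limits of distance and level were chosen after the members' values were seen.

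Across the clusters, 1 gene of each family took most of the family's counts. In let-7 and miR-125 it was the only gene of the 3 whose 5p arm is its own. The family sums were 68881 and 81168 CPM for miR-99/100, 6191 and 7238 CPM for let-7 and 4959 and 10794 CPM for miR-125 in replicates 1 and 2. Mir99a held 67.1% (66.9 to 67.3) of the miR-99/100 counts in replicate 1 and 69.7% (69.4 to 69.9) in replicate 2. Mir99b held 22.2% and 17.8%, and Mir100 10.7% and 12.5%. In this family all 3 5p arms occur in 1 counted hairpin each, but the genome was not searched, and how the 1-base difference between miR-99a-5p and miR-100-5p bears on the placing of reads was not tested. Mirlet7e held 88.2% (87.7 to 88.8) and 88.3% (87.8 to 88.9) of the let-7 counts of the clusters. Mir125a held 95.7% (95.3 to 96.1) and 96.0% (95.7 to 96.2) of the miR-125 counts. The let-7 and miR-125 shares leave out reads of the shared arms and so give no order of the mature miRNAs. Mir125b-1 and Mir125b-2, whose 5p arms are identical, stood at a ratio of 1.19 (0.98 to 1.44) in replicate 1 and 2.78 (2.37 to 3.28) in replicate 2.

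Differences between the hearts were tested gene by gene. A two-sided exact binomial test asked whether a gene's counts were split as the library sizes are, after scaling with edgeR's TMM method (a trimmed mean of log ratios). The p-values were adjusted by Benjamini-Hochberg over all 359 genes with 10 or more counts. The test compares 2 libraries beyond counting error, and the spread between animals of 1 group goes into it. Of the 9 members, 6 differed at an adjusted p under 0.05, 5 higher in replicate 2 and 1 in replicate 1, against 44.3% of all tested genes (20.1% higher in replicate 2 and 24.2% in replicate 1). The further limit of 2-fold was met by Mir125b-1 alone, higher in replicate 2, against 14.2% of the tested genes in either direction and 6.69% in that one. With library size alone Mir125a met it too (2 members, against 15.9%), and with DESeq2 size factors only Mir125b-1 did (14.5%). With rising counts ever smaller differences pass: of the 70 tested genes that averaged at least 1000 CPM, 90% passed, and 1.43% were at least 2-fold higher in replicate 2. All 5 members of that level passed, a share near this background. Of the 70 tested genes from 100 to 1000 CPM 65.7% passed, and of the members at that level only Mir125b-1 did. The median log2 ratio of replicate 2 over replicate 1 was 0.10 over the members and -0.01 over all tested genes.

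Mir125b-1 and Mir125a had the largest ratios of the members. In replicate 2 Mir125b-1 was 2.47-fold higher (95% limits 2.12 to 2.88; adjusted p = 1.22e-33, exact binomial test). Mir125a was 1.94-fold higher (1.89 to 1.99) there. Among the 70 tested genes of 1000 CPM or more, whose log2 ratios ran from -3.02 to 1.10, Mir125a stood at place 2 from the top with 0.96. Among the 70 tested genes from 100 to 1000 CPM, which ran from -3.63 to 1.71, Mir125b-1 also stood at place 2, with 1.30. Mir125b-2, the copy in the Mir99a cluster, had a ratio of 1.06 (0.86 to 1.29) and did not pass (adjusted p = 0.756, exact binomial test).

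The miR-99/100 genes passed with small differences. Replicate 2 was higher for Mir100 by 1.23-fold (95% limits 1.20 to 1.25) and for Mir99a by 1.09-fold (1.08 to 1.10). Replicate 1 was higher for Mir99b by 1.19-fold (1.17 to 1.21). Of the let-7 members, Mirlet7e differed by 1.04-fold (1.01 to 1.07) in favour of replicate 2 by TMM (adjusted p = 0.0069, exact binomial test), and the call was lost with DESeq2 size factors, where its log2 ratio was -0.01. Mirlet7c-1 (1.00-fold, 0.90 to 1.10) and Mirlet7a-2 (1.07-fold, 0.96 to 1.20) did not pass by TMM and did with library size alone, at adjusted p values of 0.0475 and 0.0018.

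**Figure D3:**
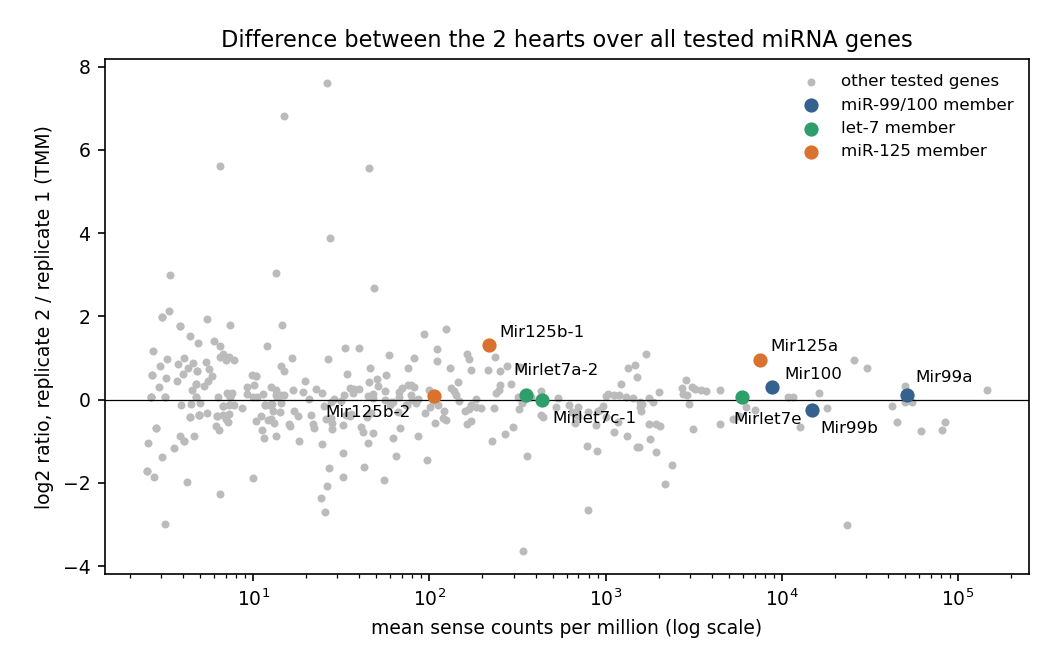
Log2 ratio of replicate 2 over replicate 1 on TMM-scaled sizes (vertical axis) against mean CPM (log axis) for the 359 tested genes; grey points are other genes and coloured points the members by family. Mir125a (0.96) and Mir125b-1 (1.30) lie near the upper edge at their levels, and the other 7 members lie between -0.25 and 0.29.

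The scaling of the libraries moved every ratio by the same amount. Against library size alone, TMM lowered each log2 ratio by 0.17 and DESeq2 size factors by 0.23. Both DESeq2 size factors were 1, so that setting compares the counts without any scaling. Mir125a, Mir125b-1, Mir100 and Mir99a were called higher in replicate 2 and Mir99b higher in replicate 1 under all of TMM, library size alone, DESeq2 size factors and TMM without the erythroid genes. With library size alone 8 members differed against 47.4% of all tested genes. Of these, 7 were higher in replicate 2 (28.7% of tested genes) and 1 in replicate 1 (18.7%). With DESeq2 size factors 5 differed against 43.5%, of which 4 were higher in replicate 2 (16.7%) and 1 in replicate 1 (26.7%). By TMM without the erythroid genes 6 differed against 43.8%, of which 5 were higher in replicate 2 (20.2%) and 1 in replicate 1 (23.6%). Mir125a was 2.18-fold and 1.86-fold higher in replicate 2 under these scalings, and Mir125b-1 2.78-fold and 2.36-fold.

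**Figure D4:**
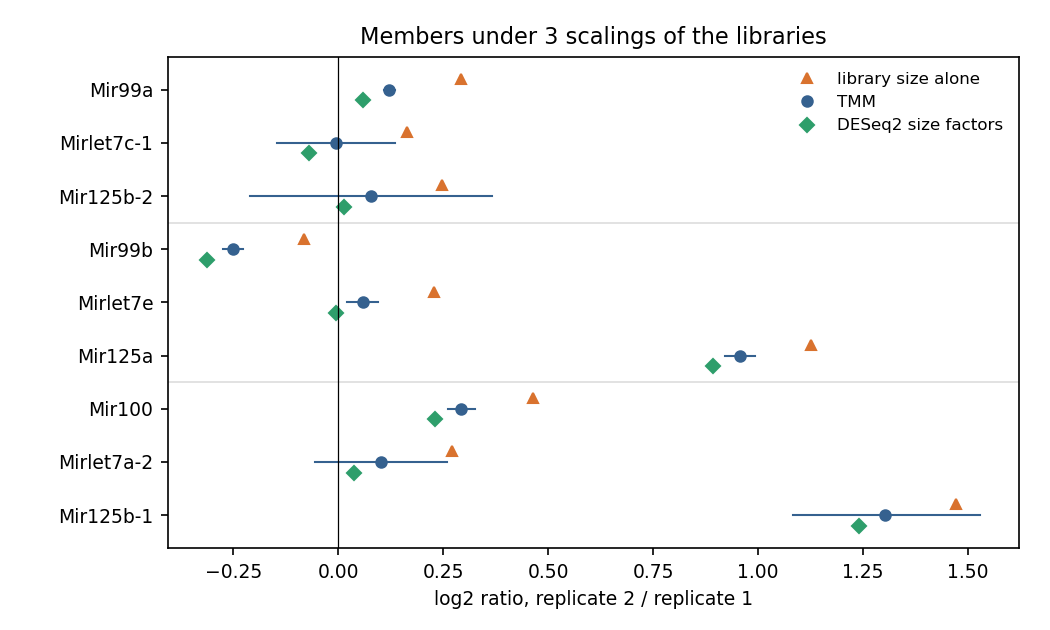
Log2 ratio of replicate 2 over replicate 1 (horizontal axis) of each member under 3 scalings. These are library size alone (triangles), TMM (circles, with 95% exact counting intervals as lines) and DESeq2 size factors (diamonds, both factors 1). Mir125a and Mir125b-1 stay at 0.89 or above under all 3, Mir99b stays below 0, and Mirlet7c-1 and Mirlet7e lie on both sides of 0.

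Other genes of the families were compared from a list of 12. Mir351, which carries the miR-125 seed and lies outside the clusters, had 4779 and 5542 counts, or 2303 and 3138 CPM, a 1.21-fold difference (95% limits 1.17 to 1.26) in favour of replicate 2. The other 9 let-7 genes ran from 240 ± 37.9 CPM (SD, n = 2) for Mirlet7f-1 to 84244 ± 14677 CPM for Mirlet7i. By TMM 1 of these 9 was higher in replicate 2 and 5 in replicate 1, against 20.1% and 24.2% of all tested genes. These counts were 4 and 5 when libraries were scaled by size alone (28.7% and 18.7% of tested genes), and 1 and 6 under the factors of DESeq2 (16.7% and 26.7%). Most of these 9 genes averaged 1000 CPM or more, a level at which 90% of the tested genes passed by TMM in either direction. The median log2 ratio of these 9 genes was -0.40 by TMM, that of the 3 let-7 members was 0.06 and that of all tested genes -0.01.

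Among the let-7 genes outside the clusters, Mirlet7a-1, Mirlet7c-2, Mirlet7f-1 and Mirlet7f-2 also have a shared 5p arm. Mirlet7a-1, which shares let-7a-5p with Mirlet7a-2, had 697 ± 77.5 CPM (SD, n = 2), against 352 ± 46.7 for Mirlet7a-2. Mirlet7c-2 had 1298 ± 141 CPM, against 435 ± 34.7 for Mirlet7c-1. Mirlet7f-2 had 6071 ± 465 CPM, and Mirlet7f-1, which holds the same 5p sequence, had 240 ± 37.9 CPM. Mirlet7a-1 and Mirlet7c-2 also share a 3p sequence with each other, while the 3p sequences of Mirlet7f-1 and Mirlet7f-2 occurred in 1 counted hairpin each. How the sharing of arms bears on the counts of these genes was not tested.

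Mir10a and Mir10b belong to a family related to miR-99/100 with another seed, and both lie in Hox gene clusters. Mir10a had 1640 and 1525 CPM and Mir10b 1037 and 535 CPM in replicates 1 and 2. Both were higher in replicate 1, Mir10b by 2.18-fold (95% limits 2.02 to 2.36), and so was Mir99b, whereas Mir99a and Mir100 were higher in replicate 2. The 3 genes at an average of 1000 CPM or above whose ratio over the 2 libraries lay closest to that of Mir99a were Mir324, Mir155 and Mir423, with log2 ratios of 0.13, 0.12 and 0.14 against 0.12. Over 2 libraries such likeness is a single ratio and says nothing more.

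The tissue label was checked with marker genes, and the hearts differed in some of them. The heart and striated muscle list had 5 of 7 genes detected and summed to 6210 CPM in replicate 1 and 8745 in replicate 2. It was led by Mir208a, which lies in a gene for a cardiac myosin. Mir133a-1 (3.86 and 1.13 CPM) and Mir133a-2 (0.96 and 1.13 CPM) were not detected. Mir1a-1 had 3.86 and 3.96 CPM and Mir1a-2 58.3 and 37.4 CPM. Whether reads of these low genes were left out because they map to several places was not tested. Of the 3 neuronal genes Mir124a-1 and Mir9-1 were at 0 in both, and Mir128-1 had 60.7 and 160 CPM. The hepatocyte gene Mir122 had 57.8 and 31.7 CPM. All genes of the lists named next were detected. The erythroid list (3 genes) summed to 45889 and 7589 CPM and the endothelial list (3) to 99058 and 66887. The smooth muscle list (2) summed to 43118 and 44232 CPM, the fibroblast list (4) to 2599 and 3689, the leukocyte list (4) to 4121 and 5447 and the epithelial list (3) to 309 and 569. On the TMM scale used for the members' ratios, replicate 1 was higher by 6.80-fold in the erythroid sum, 1.67-fold in the endothelial sum and 1.10-fold in the smooth muscle sum, whose CPM are slightly higher in replicate 2. Replicate 2 was higher by 1.25-fold in the heart and striated muscle sum, 1.26-fold in the fibroblast sum, 1.18-fold in the leukocyte sum and 1.64-fold in the epithelial sum. These lists were mixed: on that scale 3 of the 7 muscle genes, 1 of the 4 fibroblast genes, 1 of the 4 leukocyte genes and 1 of the 3 epithelial genes were higher in replicate 1. All 3 erythroid and all 3 endothelial genes were higher there. The part of blood or of other cell types in the differences of Mir125a and Mir125b-1 was not tested.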

How the data were processed

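For each library the authors deposited counts of reads at GENCODE M21 miRNA genes (mm10), per the deposited notes, in 3 columns (without regard to strand, sense and opposite). Aligner and counter: not given in the sources used here. The sense column was used. The 4 rows that name no gene held 63.0% of reads in replicate 1 and 64.6% in replicate 2, of which reads mapping to several places were 42.0% and 39.8% of all reads. They stayed out of library sizes and tests.

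Samples were grouped by tissue label, with replicate numbers from the labels. Members, lists and tests were chosen with earlier results of these data known, and the classes by level and the pairs of neighbouring genes after the values here were seen. The named genes were the members, the 12 related genes, and genes next to Mir99a, Mir99b and Mir100 in level or to Mir99a in ratio. Intervals are exact (Clopper-Pearson, 95%), and since reads carry no molecular identifiers they cover counting error only. TMM sizes came from edgeR 4.0.16, with a prior count of 0.5 in log2 ratios, and alternative size factors from DESeq2 1.42.0. The tests ran in scipy 1.17.1 and were tried on simulated counts with counting error only and plain library sizes. That trial cannot show how the test behaves with a spread between animals. Hairpins of GENCODE M21 were searched for mature RefSeq sequences. A search of the whole genome was not run. Alternatives were other library sizes, strand columns, scalings, filters, detection limits and prior counts, and each library alone.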

Additional observations from a re-analysis of the deposited data

How the results depend on the processing

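With all reads of the tables as library size, the cluster sums were 18755 CPM (Mir99a cluster), 10249 CPM (Mir99b) and 3357 CPM (Mir100). Counts without regard to strand gave 71823 CPM for the Mir99a cluster and 12863 CPM for the Mir100 cluster. The members of these clusters have the same counts in both columns, so only the total at genes differed. It was 1473763 in place of 2074961 in replicate 1 and 1295913 in place of 1766135 in replicate 2. In that column Mirlet7e stands at 0, so Mir99b held 67.3% of its cluster's counts and Mirlet7e 0% of the let-7 counts. With a further limit of 2-fold, 1 member, Mir125b-1, differed between the libraries by TMM in place of 6, and with library size alone Mir125a did so too. The log2 ratio turned sign for Mirlet7c-1 with library size alone (0.16) and for Mirlet7e with DESeq2 size factors (-0.0052), and Mirlet7a-2 passed the threshold with library size alone. The same 6 members were called with no filter on low counts, with a limit of 50 counts and by TMM without the erythroid genes. A prior count of 5 enters the log2 ratios and not the test, so it could not change the calls. All 9 members were detected at limits of 1 and 10 CPM, and each library alone gives the values printed per replicate. Both DESeq2 size factors came out as 1, so that setting leaves the counts unscaled. No paired analysis was possible because there is 1 group. With 2 hearts, the spread between animals rests on a single difference per gene.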
